A study of Mus musculus with 2 samples.

Results

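Formative and primed state regulators are genes that pluripotent cells switch on as they leave the naive state of the early embryo and become ready to form germ layers. The 9 genes described here are the transcription factor genes Otx2, Pou3f1, Foxd3, Zic2, Sox3, Sall2 and Nr2f1, and the genes of the secreted proteins Fgf15 and Cer1. They form a list of named genes, not one defined by a threshold on these values, and each has 1 row among the 48550 rows of the deposited allele-specific table. Only 4 of the 9 (Otx2, Foxd3, Zic2 and Nr2f1) had at least 20 allele-assigned reads in each library and could be tested.

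In naive embryonic stem (ES) cells, a circuit of factors that includes Esrrb, Nanog and Tfcp2l1 keeps the cells undifferentiated. On exit from that state, OTX2 and the POU-domain factor encoded by Pou3f1 (also called OCT6) occupy new enhancers together with the core factor POU5F1, and FOXD3 helps to silence naive enhancers while others open. ZIC2, SOX3, SALL2 and NR2F1 act mostly later, in epiblast and early neural tissue, whereas CER1 is an inhibitor of Nodal, BMP and Wnt signals made in the anterior endoderm.

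The samples form 1 group of 2 libraries of nuclear RNA from F121-6, a female hybrid ES cell line that carries 1 set of 129 chromosomes and 1 set of castaneus (cas) chromosomes. Both libraries share 1 culture protocol, on mouse embryonic fibroblast (MEF) feeders stopped from dividing with mitomycin-C, in serum medium with LIF, the cytokine that holds ES cells in self-renewal. The labels state neither the direction of the cross nor whether the libraries came from separate cultures, so p-values speak only for these libraries. In the main limma fit, p-values draw on a variance trend over all genes and not only on the spread of a gene's 2 libraries. The comparison within each library was the 129 allele against the cas allele, the allelic difference named in the study's design. Nuclear RNA holds unspliced as well as mature transcripts.

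Library 1 held 28523744 allele-assigned reads and library 2 held 31402765. Ratios are log2(129/cas) of reads scaled to CPM plus 0.1, relative to the typical gene, so that a positive value is higher from 129. The typical gene had a 129 share of 55.1% in library 1 and 56.2% in library 2. Calls of higher from 129 or cas are on this scale, so a gene with equal reads has a negative ratio. In limma, with an adjusted p of 0.05 as the threshold, 43.9% of the 15509 tested genes were called, made up of 21.9% with more 129 and 22.0% with more cas. That even split depends on scaling to the typical gene: giving the alleles 1 shared library size shifted the median ratio to 0.32 and the 129 side to 81.3% of calls, and scaling to the deposited column totals brought it to 61.9%. The allele values of the 2 libraries did not overlap for 63.5% of tested genes. Against that background, 3 of the 4 tested regulators were called, Foxd3 and Nr2f1 higher from 129 and Zic2 higher from cas, and the allele values of these 3 did not overlap.

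The 9 genes together gave few reads, 515 in library 1 and 523 in library 2, or 18.1 and 16.7 RPM (reads of both alleles scaled to the library's total of allele reads). The 16 naive ES cell markers gave 4514 and 4509 RPM. All 16 passed the read minimum, and 62.5% were called, against 43.9% of all tested genes. Of the 16, 2 were higher from 129 and 8 higher from cas, and their median log2 ratio was -0.27. That direction turned with 1 shared library size, which gave 7 higher from 129 and 2 from cas with a median of 0.06. The deposited column totals gave 3 and 5, and the fit without the pairing of alleles by library gave 1 and 2. The deposited RPKM gave 1 and 2, and the fit with no variance trend gave 0 and 0. The RPM sums are not per length. In bulk RNA, fewer cells of a type and less RNA per cell cannot be told apart. RPM per kb of annotated gene span put Foxd3 first, at 1.95 in library 1 and 2.10 in library 2, above every other regulator in both libraries. Zic2 followed with 0.524 and 0.887 RPM per kb and Otx2 with 0.547 and 0.322, ranges that overlap. Pou3f1 had 0.128 and 0.157 RPM per kb. Nr2f1 with 0.0780 and 0.118 and Fgf15 with 0.0951 and 0 overlapped each other, and Sall2 had 0.0339 and 0.0453. Cer1 had 0.0103 RPM per kb in library 1 and was listed at 0 in library 2. Sox3 was listed at 0 in both. By reads alone Otx2 came first, with 252 in library 1 and 163 in library 2, against 129 and 153 for Foxd3. The span includes introns, and no source used here states which interval was counted. Only reads over a position that differs between the strains can be assigned to an allele. The number of such positions per gene was not used here, so the order per kb is one of assignable reads and not of RNA.

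**Figure D1:**
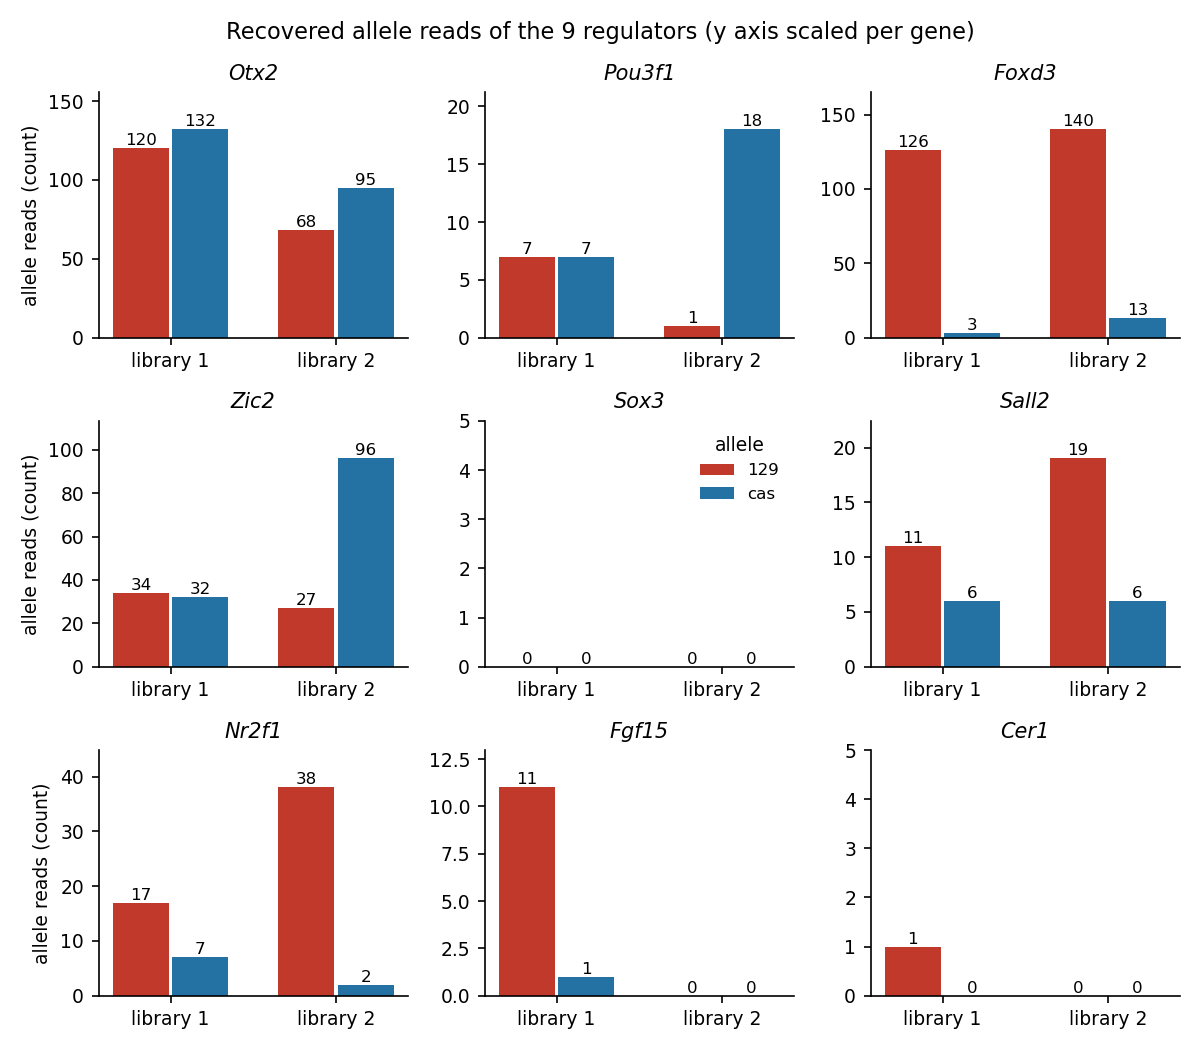
Allele reads recovered from the deposited values (vertical axis, count, starting at 0 and scaled per gene) for each of the 9 genes in library 1 and library 2, with 129 in red and cas in blue and each count printed above its bar. Foxd3 has 126 and 140 reads from 129 against 3 and 13 from cas, whereas Zic2 has 34 against 32 in library 1 and 27 against 96 in library 2.

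Foxd3 encodes a forkhead transcription factor needed to maintain pluripotent cells. It lies on the plus strand of chromosome 4 (99656299 to 99658622, mm10) as a gene with 1 exon. Library 1 gave 126 reads from 129 and 3 from cas and library 2 gave 140 and 13, so the 129 allele was far higher in both. The 129 share was 97.7% (exact 95% interval 93.4 to 99.5) in library 1 and 91.5% (85.9 to 95.4) in library 2, with a mean of 94.6% ± 4.36 (SD, n = 2). Intervals here and below cover counting error only. The log2 ratio was 3.77 (SE 0.52, limma adjusted p = 5.24e-12), a 13.7-fold excess of 129, from 4.61 in library 1 and 2.94 in library 2. The size moved with the pseudocount: with 0.5 in place of 0.1 the log2 ratio was 3.04. The difference in share between the libraries did not pass Fisher's exact test over all tested genes (adjusted p = 0.12), a test that 21.4% of tested genes passed.

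The 250 bases before the annotated start of Foxd3 are shown because it is the most one-sided of the tested regulators. They lie on the side of Gm12688, a long noncoding RNA gene on the opposite strand that starts farther upstream. The sequence is that of the RefSeq reference (build GRCm38.p6, C57BL/6J), chr4:99656049-99656298, plus strand, 5′ to 3′. It is the sequence of neither allele. Capitals mark CG dinucleotides, the sites of DNA methylation in mammals.
Foxd3 upstream: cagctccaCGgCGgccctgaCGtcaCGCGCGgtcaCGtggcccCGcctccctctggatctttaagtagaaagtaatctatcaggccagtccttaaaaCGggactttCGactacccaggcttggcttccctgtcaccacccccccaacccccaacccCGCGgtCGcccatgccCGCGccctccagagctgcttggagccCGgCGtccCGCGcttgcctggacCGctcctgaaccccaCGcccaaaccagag
These bases hold 21 CG dinucleotides and are 65.6% G or C. With the 50 bases after the start the window holds 25, more than 81.6% of the 32851 promoter windows in the RefSeq table, whose median is 7.

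Gm12688 starts at -1.315 kb from the start of Foxd3 (upstream negative) and was also called higher from 129. Its reads were 43 from 129 and 2 from cas in library 1 and 65 against 13 in library 2, for a log2 ratio of 2.67 (SE 0.67, limma adjusted p = 2.92e-04). Like Foxd3 it had the higher ratio in library 1, with 3.48 against 1.85 in library 2. Gm12690, a long intergenic noncoding RNA gene at -86.8 kb, was also higher from 129 (1.74, SE 0.49). Downstream, Gm12682 at 56.7 kb had 0.52 without a call. Alg6, a glycosyltransferase gene at 59.4 kb, was called slightly to the cas side of the typical gene (log2 ratio -0.31, SE 0.11, limma adjusted p = 0.012). Its reads were 668 from 129 and 746 from cas in library 1 but 955 against 839 in library 2 (Fisher's exact test, adjusted p = 0.0075). Of the 13 tested genes within 1 Mb, 4 were higher from 129, 4 higher from cas and 5 not called (43.9% of all tested genes were called). The median of the 13 was 0.06 and the highest value 2.67, which is that of Gm12688. The ratio of Foxd3 lay above all 13.

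**Figure D2:**
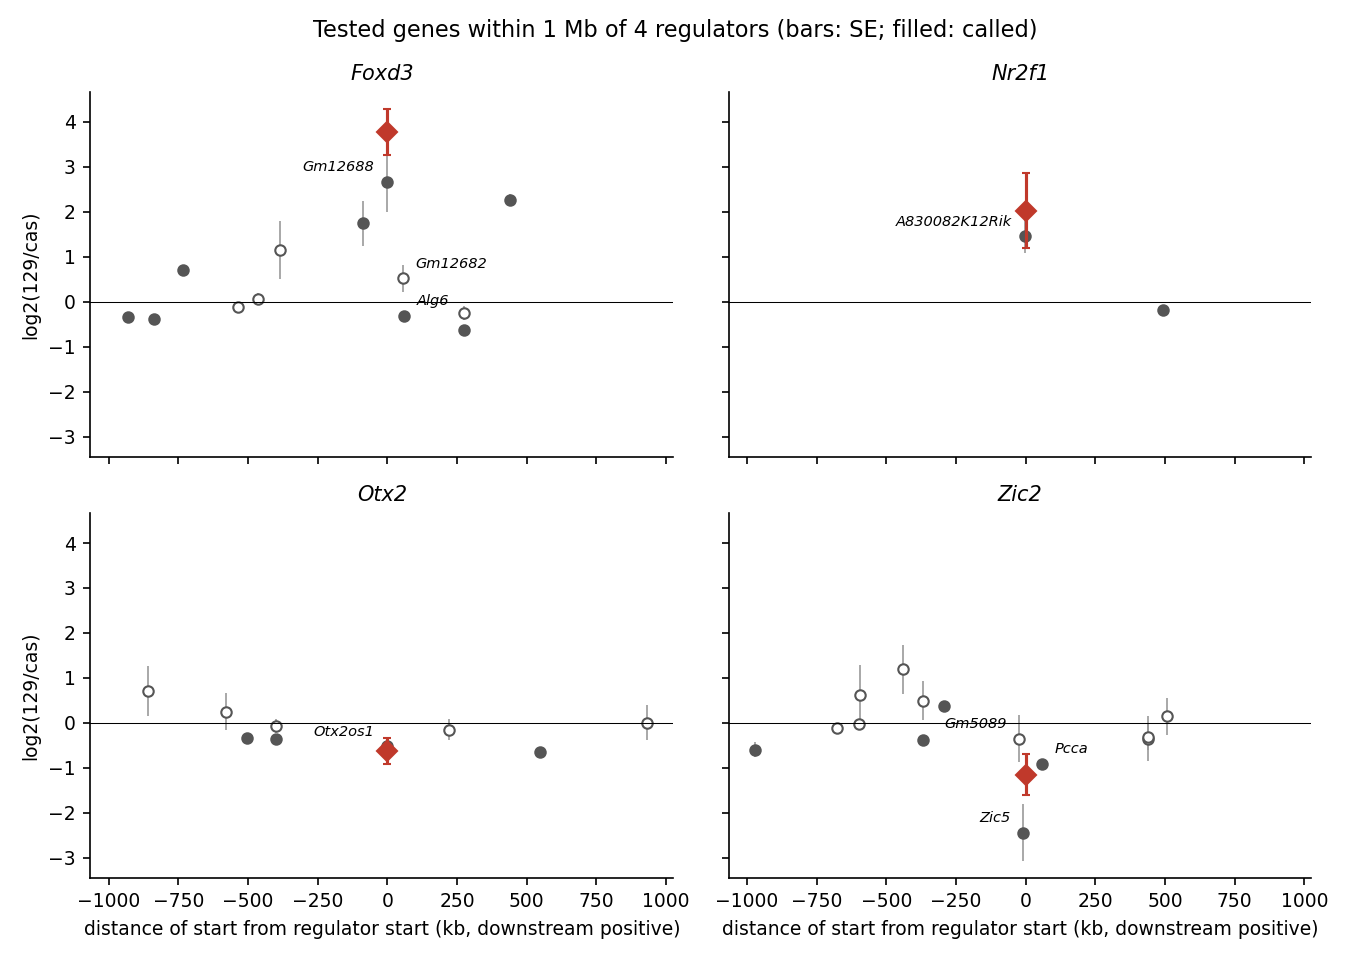
Log2(129/cas) of tested genes (vertical axis, bars SE) against the distance of their start from that of Foxd3, Nr2f1, Otx2 or Zic2 (horizontal axis, kb, downstream positive), with the regulator as a red diamond, called genes as filled circles and others as open circles. The nearest gene to each regulator lies on the same side of 0 as the regulator, while ratios farther out lie on both sides.

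Zic2 encodes a zinc finger factor of the ZIC family, known from the primed epiblast and the neural plate. It lies on chromosome 14 (122475435 to 122479852, plus strand), and here the 2 libraries disagreed. Library 1 had 34 reads from 129 and 32 from cas, and library 2 had 27 and 96. The 129 share was thus 51.5% (exact 95% interval 38.9 to 64.0) and 22.0% (15.0 to 30.3), intervals that do not overlap, and Fisher's exact test of the difference passed over all tested genes (adjusted p = 0.0012). On the scaled level, the cas allele stood at 2.55 CPM in library 1 and 6.79 CPM in library 2, and the 129 allele at 2.21 and 1.49 CPM, so the gap between the libraries lay mainly in the cas reads. The log2 ratio was -1.16 (SE 0.46, limma adjusted p = 0.027), from -0.20 in library 1 and -2.12 in library 2. The share in library 1 did not differ from that library's overall 129 share (exact binomial test, adjusted p = 0.86), while that in library 2 did (adjusted p = 2.17e-12). This binomial test passed for 58.9% of tested genes in library 1 and 66.2% in library 2. The call for Zic2 therefore rested on library 2, and it was lost without the pairing of alleles by library (limma adjusted p = 0.13) and with 1 shared library size (0.11).

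Zic5, another ZIC gene whose start lies at -9.757 kb on the opposite strand, was higher from cas in both libraries. Library 1 had 12 of its reads from 129 and 38 from cas, and library 2 had 6 and 49, for a log2 ratio of -2.44 (SE 0.64, limma adjusted p = 5.21e-04). Pcca, a mitochondrial carboxylase subunit gene 58.9 kb downstream, was higher from cas as well (-0.91, SE 0.09), and the antisense gene Gm5089 at -24.3 kb had -0.35 without a call. All 3 had a lower ratio in library 2 than in library 1, as Zic2 did, but neither Zic5 (Fisher's exact test, adjusted p = 0.27) nor Pcca (0.25) nor Gm5089 (1) differed between the libraries beyond counting error. Of the 14 tested genes within 1 Mb, 1 was higher from 129, 4 higher from cas and 9 were not called. Over all tested genes, 21.9% were higher from 129 and 22.0% higher from cas.

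Otx2 encodes a homeodomain factor of the bicoid type that directs the exit from the naive state and later the making of the forebrain. It lies on chromosome 14 (48657677 to 48673819, minus strand) and had the most reads of the 9 genes. Library 1 had 120 reads from 129 and 132 from cas, and library 2 had 68 and 95, so cas was the higher in each. The 129 shares of 47.6% (exact 95% interval 41.3 to 54.0) and 41.7% (34.1 to 49.7) gave a mean of 44.7% ± 4.17 (SD, n = 2). The scaled levels of 129 (7.79 and 3.74 CPM) and of cas (10.5 and 6.72 CPM) overlapped, because both alleles stood lower in library 2. The log2 ratio of -0.63 (SE 0.29) did not pass (limma adjusted p = 0.071), and it kept its sign and stayed without a call in all 10 other fits over all genes. Between the libraries the share did not differ beyond counting error (Fisher's exact test, adjusted p = 0.46).

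Otx2os1, a long noncoding RNA gene that runs opposite to Otx2 and overlaps 5112 bases of it, was called higher from cas (log2 ratio -0.51, SE 0.18, limma adjusted p = 0.015). With the deposited column totals this call was lost (adjusted p = 0.060). Its libraries disagreed: library 1 had 235 reads from 129 and 214 from cas, and library 2 had 250 and 356 (Fisher's exact test, adjusted p = 0.0041). The ratios of -0.16 and -0.87 are ordered as those of Otx2, -0.43 and -0.83. The libraries were strand-specific per the labels, but no source used here says whether counting used the strand, so reads of overlapping genes on opposite strands cannot be told apart. Within 1 Mb of Otx2, 4 of 9 tested genes were higher from cas, 0 were called higher from 129, and the median was -0.15. Over all tested genes, 22.0% were higher from cas and 21.9% higher from 129.

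RefSeq promoter windows, of 250 bases before to 50 after a start, were found for 5 of the 9 genes (Otx2, Foxd3, Nr2f1, Sall2 and Cer1), with 10 windows in all since several have more than 1 start. The bicoid-type motif TAATCC, searched on both strands as were the others, occurred in 1 of the 10, a window of Otx2 itself, and in 7.06% of all windows. The SOX motif AACAAAG occurred in 1, of Nr2f1 (5.85% of all windows), and the POU octamer ATGCAAAT in 0 (1.74% of all). The motifs do not overlap in these windows. A match is a description of letters, not of a bound site.

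Pou3f1 encodes a POU-domain factor that partners with OTX2 at formative enhancers and later acts in neurons and Schwann cells. It lies on chromosome 4 (124656807 to 124660655, plus strand) and, like Zic2, looked unlike in the 2 libraries. Library 1 had 7 reads from each allele, and library 2 had 1 from 129 and 18 from cas. The 129 share was 50.0% (exact 95% interval 23.0 to 77.0) in library 1 and 5.26% (0.13 to 26.0) in library 2, intervals that overlap. With 14 and 19 reads it was under the minimum and was not tested. Gm27247, listed on the other strand with a start 0.363 kb downstream of that of Pou3f1, had 101 reads from 129 and 185 from cas in library 1 and 146 against 318 in library 2. It was higher from cas in both libraries (log2 ratio -1.32, SE 0.23, limma adjusted p = 4.17e-08). Its start lies within Pou3f1, so reads of these genes cannot be told apart where they overlap. Of the 11 tested genes within 250 kb of Pou3f1, Gm27247 was the only one called, whereas 43.9% of all tested genes were called.

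**Figure D3:**
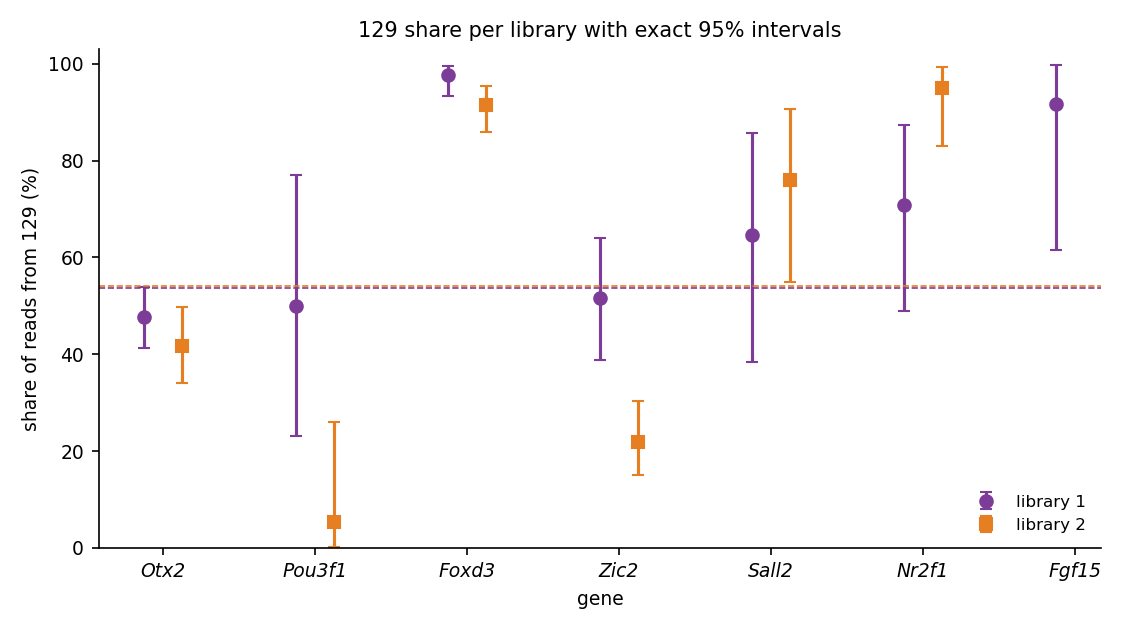
Share of reads from 129 (vertical axis, percent) with exact 95% intervals in library 1 (purple circles) and library 2 (orange squares) for the 7 genes with at least 12 reads in library 1, and the overall 129 share of each library as a dashed line at 53.6% and 54.2%. The intervals of the 2 libraries do not overlap for Zic2 and overlap for the other genes with reads in both.

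Nr2f1 encodes COUP-TFI, an orphan nuclear receptor of the neural plate and of many mesenchymal tissues. It lies on chromosome 13 (78188973 to 78199757, minus strand) and had the fewest reads of the tested regulators. Library 1 had 17 reads from 129 and 7 from cas, and library 2 had 38 and 2, so both favoured 129 to different degrees. The 129 share was 70.8% (exact 95% interval 48.9 to 87.4) and 95% (83.1 to 99.4). The log2 ratio was 2.03 (SE 0.84, limma adjusted p = 0.038), from 0.87 in library 1 and 3.18 in library 2, and with a pseudocount of 0.5 it was 1.31. The share in library 1 did not pass the exact binomial test against the library's overall share (adjusted p = 0.15), and that in library 2 did (6.04e-08). The difference between the libraries just missed in Fisher's exact test (adjusted p = 0.051). The call was lost without the pairing of alleles by library (limma adjusted p = 0.060), and its pooled SE does not show how far these 2 libraries lie apart.

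A830082K12Rik, antisense to Nr2f1 with an overlap of 1741 bases, was higher from 129 in both libraries as well. It had 94 reads from 129 and 31 from cas in library 1 and 133 against 32 in library 2 (log2 ratio 1.46, SE 0.38, limma adjusted p = 5.36e-04). It was the only tested gene within 250 kb. As with Otx2 and Otx2os1, reads of A830082K12Rik and Nr2f1 cannot be told apart where the genes overlap. Nr2f2, the closest relative of Nr2f1, had 14 reads from 129 and 3 from cas in library 1 and 52 against 1 in library 2, with too few in library 1 to be tested. The 129 allele thus had more reads in both libraries for both COUP-TF genes.

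Markers of feeder fibroblasts moved in the same direction as Foxd3 and Nr2f1. Of 22 such markers, 18 were tested, 14 were higher from 129 and 0 higher from cas. That is 77.8% called, against 43.9% of all tested genes. The median log2 ratio was 2.38, against -0.00 for all tested genes. The sizes differed widely. Col5a2, a fibrillar collagen gene, had a ratio of 5.01 (SE 0.18), Cd44 had 4.48 (SE 0.09) and Prrx1, a mesenchymal homeobox gene, 4.23 (SE 0.31). Col5a1 had only 1.01 (SE 0.09) and Fbn1 0.93 (SE 0.15). Pdgfrb (0.66), Loxl1 (0.24), Acta2 (0.23) and Thy1 (0.20) were not called. With no variance trend, 5 markers of the list were called higher from 129 and 0 from cas. The summed reads of the list were 525 RPM in library 1 and 623 RPM in library 2, and Twist1, Lum and S100a4 were listed at 0. The part of feeder RNA in the reads of Nr2f1, Foxd3 and Sall2 was not tested. Of 8 neural markers, 3 were tested and 1 was higher from 129 (Map2, 0.41, SE 0.08), while Sox1, Hes5 and Tubb3 were listed at 0 and the summed reads were 159 and 158 RPM. Of 10 endoderm markers, 5 were tested and 1, Pdgfra, was higher from 129 (4.38, SE 0.25). The other 4 were not called, with ratios from -0.26 (Hhex) to 0.62 (Gata6). The endoderm factor genes Gata6 and Gata4 differed between the libraries in Fisher's exact test (adjusted p = 0.0035 and 0.0096). Their ratios were 1.38 and 0.68 in library 1 and -0.14 and -0.22 in library 2. They were 2 of the 5 tested endoderm markers (40.0%, against 21.4% of all tested genes). Hhex (-0.59 and 0.07), Dab2 (-0.31 and -0.07) and Pdgfra (4.12 and 4.64) had the higher ratio in library 2 and did not pass that test. Summed reads of the endoderm list were 62.2 and 80.4 RPM, of which Pdgfra gave 20.5 and 29.8 RPM.

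Sall2 encodes a zinc finger factor of the spalt family. It lies on chromosome 14 (52311172 to 52328762, minus strand) and had 11 reads from 129 against 6 from cas in library 1, and 19 against 6 in library 2. Its 129 share was 64.7% (exact 95% interval 38.3 to 85.8) and 76.0% (54.9 to 90.6), both above the libraries' overall share as point values. With 17 reads in library 1 it was not tested. Around it, 4 of 8 tested genes within 250 kb were higher from cas, against 22.0% of all tested genes, and 0 higher from 129. Among the 4 was the splicing factor gene Hnrnpc (-0.91, SE 0.05). The nearest tested gene, Mettl3, the RNA methyltransferase gene 23.7 kb downstream, had -0.07 without a call.

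Fgf15, a fibroblast growth factor gene of the epiblast, midbrain and gut on chromosome 7 (144896531 to 144900953, plus strand), was seen in 1 library only. It had 11 reads from 129 and 1 from cas in library 1, a 129 share of 91.7% (exact 95% interval 61.5 to 99.8), and 0 reads in library 2, which allows up to 0.0955 RPM. Its level in library 1 was 0.421 RPM. Fgf4, a growth factor gene of naive ES cells at -49.2 kb, had reads from both alleles in both libraries and a ratio of -0.20 without a call. The antisense gene Gm26793, which overlaps 931 bases of Fgf15, had 0 reads from 129 and 4 from cas in library 1 and 0 against 7 in library 2, the opposite side from Fgf15. The nearest tested gene downstream, Oraov1 at 18.6 kb, had -0.05.

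Cer1, on chromosome 4 (82881751 to 82885148, minus strand), had 1 read, from 129 in library 1. Its nearest tested neighbours were Zdhhc21, a palmitoyltransferase gene 25.5 kb downstream (-0.30, SE 0.09), and Frem1, a matrix protein gene at -167 kb (0.91, SE 0.37).

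Sox3, a SOXB1 factor gene with 1 copy on each X chromosome of these female cells (60891366 to 60893430, minus strand), was listed at 0 in all 4 columns, with an upper limit of 0.105 RPM in library 1. Sox2, a SOXB1 gene on which ES cells depend, was also listed at 0 in all 4, so that a 0 in this table does not show that a gene was silent. No tested gene started within 250 kb of Sox3, and of 5 within 1 Mb, 4 were higher from cas, against 22.0% of all tested genes.

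**Figure D4:**
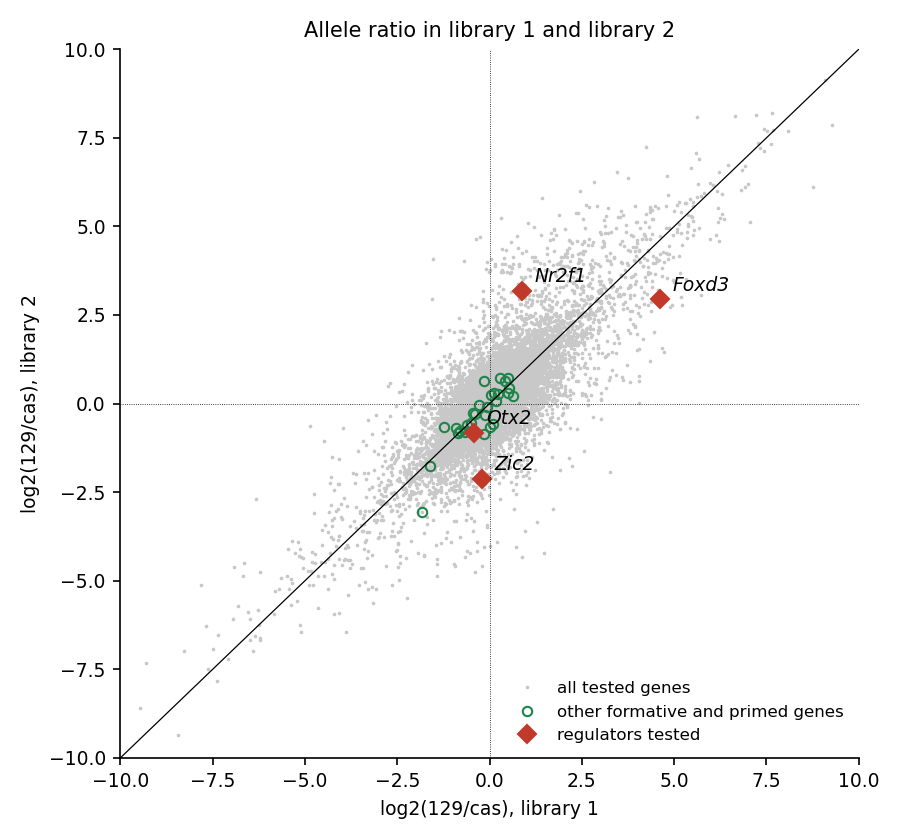
Log2(129/cas) in library 1 (horizontal axis) against library 2 (vertical axis) for all tested genes (grey), other formative and primed genes (green circles) and the 4 tested regulators (red diamonds), with the line of equal ratios. Zic2 and Foxd3 lie below the line and Nr2f1 above it, and Otx2 lies near it at -0.43 and -0.83, while 2 genes fall outside the axes, which end at 10.

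Other genes of the formative and primed states leaned to the cas side in the main fit, and most had many more reads. Of 33 such genes, 28 were tested and 57.1% of these called, against 43.9% of all tested genes (21.9% higher from 129, 22.0% from cas). Among the 28, 4 were higher from 129 and 12 higher from cas, with a median log2 ratio of -0.23. With 1 shared library size the counts were 8 and 8 and the median turned to 0.09, and with the deposited column totals they were 6 and 9. Without the pairing of alleles by library 1 was higher from 129 and 9 from cas. The deposited RPKM gave 2 and 5, and the fit with no variance trend gave 0 and 1. The 2 libraries differed in the 129 share for 4 of the 28 (14.3%, against 21.4% of all tested genes). The 4 were Etv5 (Fisher's exact test, adjusted p = 2.38e-11), Rbpj (2.42e-07), Otx2os1 (0.0041) and Cdh2 (0.0054). The ratio was lower in library 2 for 13 of the 28 (46.4%, against 52.9% of all).

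Toward cas, Zic5 was followed by Lef1, the Wnt effector gene, with 2143 reads from 129 and 5296 from cas in library 1 and 2031 against 5394 in library 2 (log2 ratio -1.69, SE 0.06). Eomes, a T-box gene of the primitive streak, had -0.95 (SE 0.40). The de novo DNA methyltransferase genes Dnmt3a and Dnmt3b had -0.84 (SE 0.10) and -0.74 (SE 0.12). Etv5, an effector of FGF signals, had -0.81 (SE 0.05), and the zinc finger gene Zfp281 had -0.78 (SE 0.19). Grhl2, an epithelial factor gene, had -0.61 (SE 0.09). The gene pair that blocks let-7 microRNAs had -0.53 (SE 0.08) for Lin28b and -0.36 (SE 0.12) for Lin28a. Rbpj, the Notch effector gene and the one with the most reads of the list, had -0.34 (SE 0.04). With 1 shared library size the ratios of Rbpj and Lin28a were -0.01 and -0.03 without a call. Eomes (-0.63) and Otx2os1 (-0.19) lost their calls in that fit as well, and no called gene of the list changed sign.

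Toward 129, the cadherin gene Cdh2, a mark of primed cells and of mesenchyme, had 0.61 (SE 0.09). The Nodal inhibitor genes Lefty1 and Lefty2 had 0.53 (SE 0.15) and 0.40 (SE 0.08), and the hormone precursor gene Trh had 0.48 (SE 0.18). Nodal itself had 0.43 without a call (limma adjusted p = 0.076), but was called higher from 129 with the deposited column totals (0.53, limma adjusted p = 0.025) and with 1 shared library size (0.75, 8.01e-04). Fgf5, the classic marker of the formative epiblast, had 33 reads from 129 and 22 from cas in library 1 and 63 against 29 in library 2, with a ratio of 0.50 without a call. Pou5f1 (0.14) and the repressor gene Tcf7l1 (-0.09) were not called either, and Tcf7l1 was called higher from 129 with 1 shared library size (0.24).

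**Figure D5:**
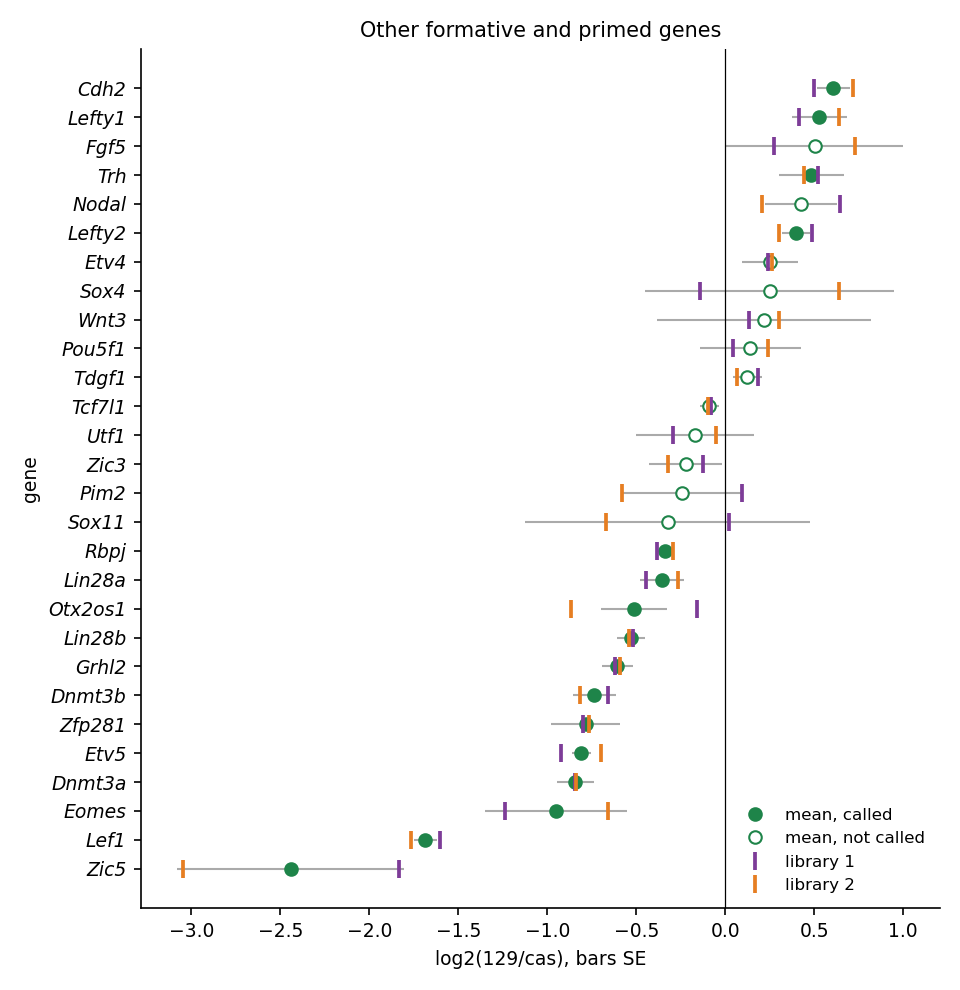
Log2(129/cas) of the 28 tested other formative and primed genes (horizontal axis, one gene per line) as mean with SE, filled where called, with the values of library 1 (purple ticks) and library 2 (orange ticks). The ticks lie close together for Lef1 (-1.60 and -1.77) and apart for Otx2os1 (-0.16 and -0.87). Etv5 (-0.92 and -0.70) and Cdh2 (0.50 and 0.72) have many reads and differed between the libraries in Fisher's exact test.

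Among tested genes with total reads within 2-fold of each called regulator, those with the closest pair of library ratios were Gm12928, 9330175M20Rik and Platr7 for Foxd3, Stum, Gm15983 and Gm14415 for Zic2, and Gm14827, Abcb5 and Ebf2 for Nr2f1. The measure was the distance over 2 libraries, from 0.05 for Gm12928 (4.59 and 2.99) to 0.28 for Platr7 within the set for Foxd3. It is a likeness over 2 points only.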

How the data were processed

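Nuclear RNA was sequenced as 100 bp paired-end reads, and re-sequenced libraries were merged with earlier reads, per the labels' protocols. Alignment used Bowtie2 and build mm10, per the submitters' processing notes. No source used here names the counter, the SNP set, the annotation or the use of strand. The deposited values are RPKM made by the authors, although the columns are called counts per the file headers. Value times row length gave whole multiples of a step particular to each column for 100.0% of values (tolerance 0.01 read), and these multiples are the recovered reads. Deposited lengths matched the annotated span within 2 bp for only 67 rows, so deposited RPKM were not compared between genes. Their ratio between alleles does not depend on the length.

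Because the unit is RPKM, limma 3.58.1 (R 4.3.3) was used on log2 of recovered reads, scaled to CPM by trimmed means of M values (TMM), plus a pseudocount of 0.1. The fit had trended variances, library as a block, since 1 RNA sample gives both allele columns, and Benjamini-Hochberg adjustment over all 15509 rows with at least 20 allele reads in each library. Y-linked rows (1570) were left out of the tested rows but were counted in the column and library totals. Shares have exact Clopper-Pearson intervals (scipy 1.17.1); exact binomial and Fisher's exact tests were two-sided, compare reads of these libraries only, and were adjusted over the same rows. Rows were matched to GENCODE M21 (95.6%) and RefSeq promoters.

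The 9 genes and all lists were chosen with earlier results of these data known. Named genes were the 9, and the called and the 4 with most reads of the other formative and primed genes. Also named were the nearest tested and the overlapping neighbours, the 3 most alike, and up to 4 of each marker list. Fgf5, Nodal, Pou5f1, Nr2f2, Gm12690, Alg6, Gm5089, Fgf4, Hnrnpc, Prrx1, Pdgfrb, Loxl1, Acta2, Thy1 and Hhex were added after their values were seen.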

Additional observations from a re-analysis of the deposited data

How the results depend on the processing

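Over all genes, 6809 calls became 3954 with no replicate block (alleles not paired by library), 644 with no variance trend and 2762 on the deposited RPKM, and stayed within 1.5 times in the other 7 fits. Foxd3 lost its call in 1 of 10 fits, with no variance trend (log2 ratio 3.77, adjusted p = 0.076 in limma). Zic2 lost it in 5 of 9 (a minimum of 100 reads removes Zic2 and Nr2f1): with 1 shared library size (-0.84, adjusted p = 0.11 in limma), no minimum beyond 1 read (-1.16, 0.055), no replicate block (-1.16, 0.13), no variance trend (-1.16, 0.30) and the deposited RPKM (-1.04, 0.27). Nr2f1 lost it in 4 of 9: with a pseudocount of 0.02 (2.33, adjusted p = 0.064 in limma), no replicate block (2.03, 0.060), no variance trend (2.03, 0.20) and the deposited RPKM (2.48, 0.14). Otx2 changed no call. Causes were not tested, apart from the pairing, which the alternative removes by construction. In single libraries, values with no test ranged from 2.94 to 4.61 for Foxd3, -2.12 to -0.20 for Zic2, 0.87 to 3.18 for Nr2f1 and -0.83 to -0.43 for Otx2. The count of genes whose libraries differ, 3314, stayed within 1.5 times in both alternatives. The planned count-model fits were not run. The 5 untested regulators had 0 to 42 reads each in both libraries together. With no minimum, Pou3f1 and Sall2 had limma adjusted p of 0.17 and 0.55.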
